A study of Mus musculus with 4 samples.

Results

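The genes described here are 32 genes of meiotic recombination and DNA break repair, taken from a fixed list of symbols by name, all of which were found among the 18419 genes of the deposited single-cell table. Testicular tubule cells of ICR mice, an outbred strain, were profiled with 10x 3′ single-cell RNA sequencing in 4 groups. A0 mice received the vehicle alone and A10 mice received alginate oligosaccharides (AOS), short sugar chains cut from seaweed alginate, at 10 mg per kg body weight. B0 mice received the alkylating drug busulfan, which kills dividing germ cells, and BA10 mice received busulfan and then AOS at 10 mg per kg. Busulfan was injected once in young males before the oral dosing began, and the cells of several mice were pooled in 1 library for each group. With 1 library a group there was no replicate, no test and no p-value was possible, and library and treatment cannot be told apart. All intervals below are exact 95% intervals that cover counting error only, Poisson for sums of UMIs (unique molecular identifiers, 1 for each captured transcript) and binomial for shares of cells.

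In meiosis, germ cells cut their own DNA at chosen hotspots, coat the resected ends with single-strand binding proteins, and load recombinases that search for the homologous chromosome. A part of the joint molecules is then matured into crossovers, which hold the homologues together until they separate. The kinases that sense broken DNA follow the breaks and, in males, mark the unpaired X and Y chromosomes. In the adult testis these steps belong to primary spermatocytes, whereas several of the single-strand binding and signalling proteins also act at replication forks of other dividing cells.

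The libraries held 8941 (A0), 9682 (A10), 4659 (B0) and 3778 (BA10) cells with median depths of 12685, 10948, 4214 and 17989 UMIs. The shallowest cell had 7687, 6716, 2985 and 9013 UMIs, lowest by far in B0. Ratios are therefore given for all cells and for deep cells, those with at least 9013 UMIs, of which B0 had 448. Cells were grouped in 31 clusters without the 32 genes. Of these, 10 clusters were spermatocyte-like and 12 were spermatid-like by marker genes. Spermatocyte-like cells made up 34.9%, 33.7%, 0.923% and 85.4% of the A0, A10, B0 and BA10 libraries, and Leydig-like cells, the hormone-making cells between the tubules, made up 62.9% of B0. Insl3, a Leydig cell hormone, stood at 11866 CPM (UMIs of the gene per 1000000 UMIs of the cells) in the Leydig-like cluster, at 10075 CPM in the macrophage-like one and at 216 CPM in the Sertoli-like one, all 3 mostly of B0 cells. Whether B0 holds free RNA of Leydig cells was not tested. In total, 374 cell barcodes were seen in more than 1 library.

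Most of the 32 genes were highest in 3 small clusters in which Stra8 or Sycp1 was high. A cluster led by Meiob with Mdk and Dazl had the highest level of Sycp1, the synaptonemal complex protein that links the paired chromosome axes, at 3508 CPM. It is called the Sycp1-richest cluster here. It stayed without a cell type name because Dazl, a spermatogonial marker, was among its leading genes and no spermatocyte marker was. It held 184 cells, of which 181 came from B0 and 3 from BA10, with a median of 4655 UMIs. The second was led by Stra8, which starts the meiotic programme, together with Cldn5 and the macrophage genes Lyz2 and C1qc, and held 422 cells (366 of B0, 45 of BA10 and 11 of A0) with a median of 4102.5 UMIs. Its markers were those of several cell types, since by the mean level of each marker list, relative to the highest cluster of each marker, it scored highest for endothelial (1.00) and peritubular myoid cells (0.95), and it stayed without a name. The third was led by Stra8 and Crabp1 and held 114 cells of all 4 libraries. The Sycp1-richest cluster was the highest cluster of 13 of the 32 genes, the Stra8/Cldn5 cluster of 10 and the Stra8/Crabp1 cluster of 1 (Mei4). For 13 of these 24 genes the interval overlapped that of the second-highest cluster, which for 9 of the 13 was another of the 3 clusters. Over all 18419 genes the shares highest in these clusters were 8.29%, 11.3% and 1.63%. Of the 16 of the 32 genes with a mean of at least 5 CPM over the libraries, 7 were highest in the Sycp1-richest, 2 in the Stra8/Cldn5 and 0 in the Stra8/Crabp1 cluster, against 11.2%, 5.69% and 0.482% of the 9967 genes past that level. Mnd1, among the 7, and Atm, among the 2, reached that level only through B0. Most cells of both clusters came from B0, so these counts are not independent of the floor.

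Cells of the first pair of these clusters were shallow. In the Sycp1-richest cluster 17.4% of the cells reached the lowest UMI count found in A0, 23.9% that of A10 and 11.4% that of BA10. In the Stra8/Cldn5 cluster these shares were 15.9%, 17.1% and 14.9%. Most cells of both clusters were thus shallower than the shallowest cell of the A0, A10 and BA10 libraries. The part of this in the absence of A0 and A10 cells from the Sycp1-richest cluster was not tested.

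**Figure D1:**
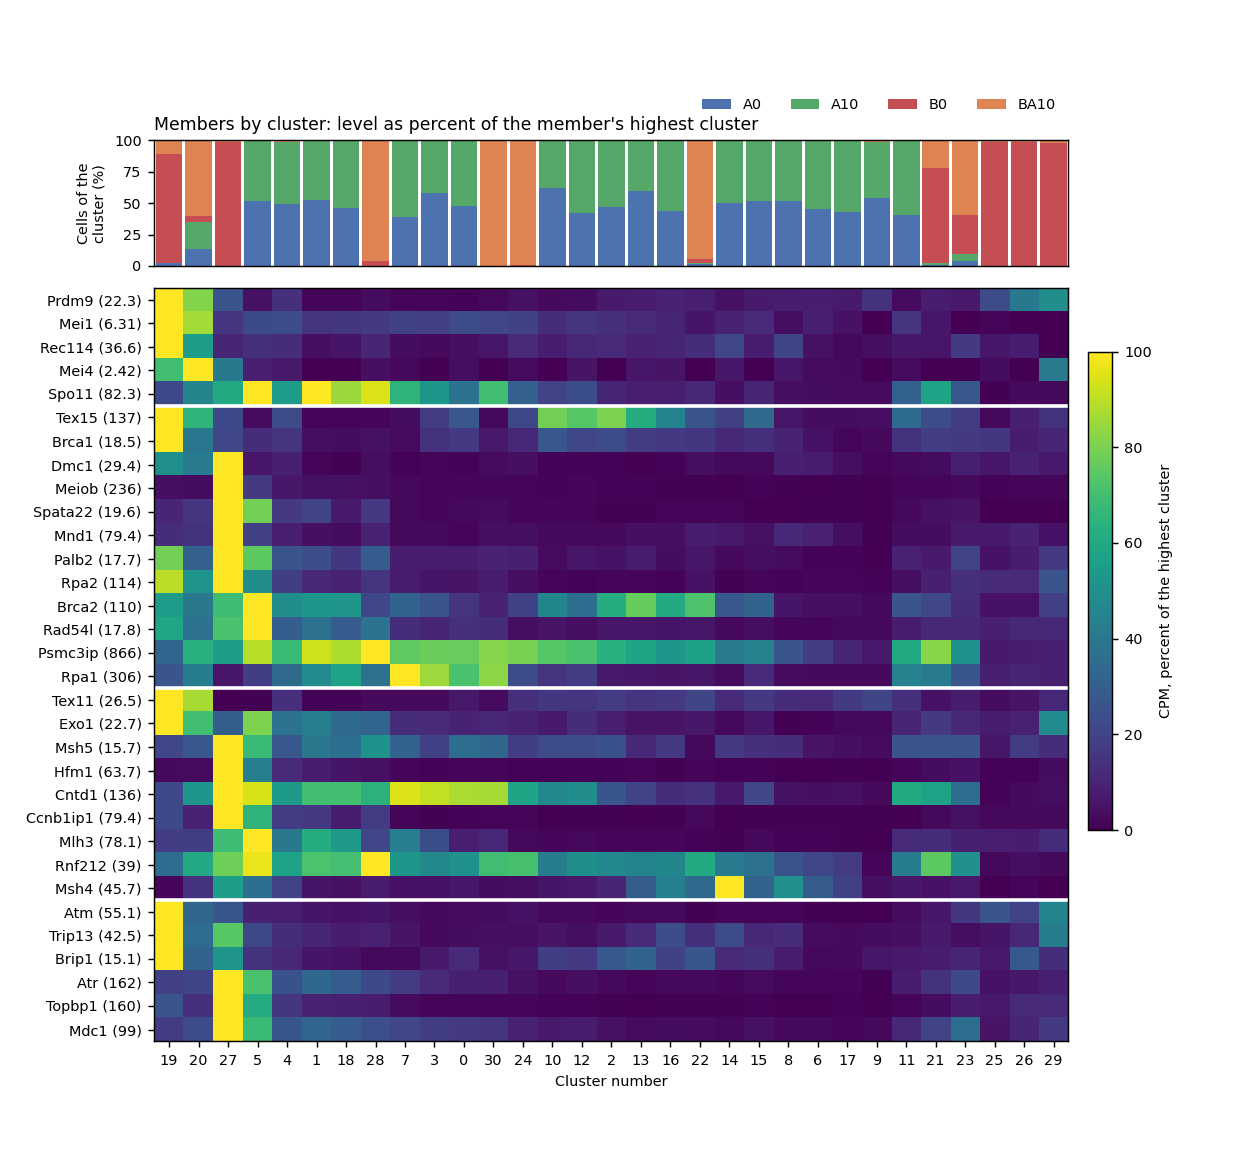
Level of each of the 32 genes in each cluster as a percent of its level in its highest cluster (colour), with the level in that highest cluster in CPM beside the gene and the share of each cluster's cells from A0, A10, B0 and BA10 as bars. Most genes are brightest, which marks the highest level, in the Stra8 and Sycp1-richest clusters on the left. There B0 supplies 366 of 422, 5 of 114 and 181 of 184 cells. Psmc3ip, Rpa1, Cntd1, Tex15 and Msh4 extend into clusters further right.

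Break formation. Spo11, the catalytic subunit of the enzyme that makes the breaks, was found at 27.6 CPM in A0 (95% interval 26.7 to 28.4), 26.1 CPM in A10, 16.6 CPM in B0 (15.1 to 18.3) and 58.1 CPM in BA10 (56.5 to 59.7). BA10 stood above the other libraries and B0 below them, but among deep cells B0 stood above A0 and A10, with 47.4 CPM against 28.2 and 27.9 CPM. Spo11 was not confined to the Stra8 and Sycp1-richest clusters. It was highest in a spermatocyte-like cluster of A0 and A10 led by Tex101 with Maz, called Tex101-led here, at 82.4 CPM (74.5 to 90.8) and in a Pou5f2-led one at 82.3 CPM (75.8 to 89.2), which overlap. In the Sycp1-richest cluster it was 50.01 CPM (37.2 to 65.8) and in the Leydig-like cluster 0.389 CPM (0.126 to 0.907), below 1% of the highest level.

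The other genes of break formation were highest in the Stra8 clusters and had much lower peaks than Spo11. Prdm9, the histone methyltransferase that places the hotspots, was highest in the Stra8/Cldn5 cluster at 22.3 CPM (16.7 to 29.2) and the Stra8/Crabp1 cluster at 18.1 CPM (12.2 to 25.9), and stood at 5.88 CPM in the Sycp1-richest cluster, against 5.13 CPM in Leydig-like, 9.04 CPM (4.82 to 15.5) in macrophage-like and 10.97 CPM (5.48 to 19.6) in Sertoli-like cells. The interval of the Stra8/Crabp1 cluster overlapped those of the macrophage-like and Sertoli-like cells, and that of the Stra8/Cldn5 cluster overlapped the Sertoli-like one. Rec114, a partner of SPO11 on the chromosome axis, was 36.6 CPM (29.3 to 45.1) in the Stra8/Cldn5 cluster, 20.6 CPM in the Stra8/Crabp1 cluster and 3.92 CPM in the Sycp1-richest cluster. Both genes were thus highest in the Stra8 clusters. Their levels in the Sycp1-richest cluster rested on 6 UMIs for Prdm9 (2.16 to 12.8 CPM) and 4 UMIs for Rec114 (1.07 to 10.0 CPM). There the Prdm9 interval overlapped that of the Stra8/Crabp1 cluster, and the Rec114 interval lay below those of both Stra8 clusters. Mei1, which is needed for break formation, reached 6.31 CPM (3.53 to 10.4) and Mei4, the partner of Rec114, 2.42 CPM (0.659 to 6.19). Mei4 was seen as 12, 9, 7 and 9 UMIs in the A0, A10, B0 and BA10 libraries, so that no order among its levels could be read.

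In B0 the UMIs of these genes came from different cells. Of the Spo11 UMIs of B0, 67.0% lay in a cluster led by Dcn, Gsn and Mgp, genes of connective tissue cells, which also carried the spermatid and spermatocyte gene Ldhc at 7324 CPM and was left unnamed. Of the Rec114 UMIs of B0, 56.7% lay in the Stra8/Cldn5 cluster. Of the Prdm9 UMIs of B0, 42.0% lay in Leydig-like cells at the low level given above. The library level of Prdm9 in B0, 6.20 CPM (5.27 to 7.25) against 1.27 CPM in A0, therefore includes many UMIs from Leydig-like barcodes, and whether these are transcripts of those cells or free RNA was not tested. In bulk sums like these, fewer cells of a type and less RNA per cell cannot be told apart.

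Single-strand binding and strand exchange. Psmc3ip (also HOP2) and Mnd1 encode the 2 subunits of a complex that helps the meiotic recombinase DMC1 to invade the homologous duplex. Their transcripts had very different profiles in these cells. Psmc3ip was 525 CPM (522 to 529) in A0, 502 CPM (499 to 506) in A10, 290 CPM (283 to 296) in B0 and 753 CPM (748 to 759) in BA10. Psmc3ip alone supplied 57.0%, 56.5%, 45.0% and 60.6% of the UMIs of the 32 genes in these libraries, so that any sum over them is mainly a reading of this gene. Mnd1 was 4.12 CPM in A0, 3.28 CPM in A10, 8.10 CPM in B0 and 5.38 CPM in BA10. UMIs of a 3′ library count transcripts irrespective of their length, although capture can still differ between genes.

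Along the clusters Mnd1 was highest in the Sycp1-richest cluster at 79.4 CPM (63.1 to 98.7), followed by the Tex101-led cluster at 15.01 CPM (11.8 to 18.8). Psmc3ip was 482 CPM (441 to 527) in the Sycp1-richest cluster, was at most 804 CPM (783 to 825) in the Pou5f2-led clusters of A0 and A10, and reached its highest level, 866 CPM (857 to 875), in a BA10 cluster led by Cd177. It was still 637 CPM (621 to 653) in the highest spermatid-like cluster, which scored 0.386 for spermatids and 0.318 for spermatocytes. In the lowest spermatid-like cluster, with Car2 among its leading genes, it was 60.0 CPM. Mnd1 did not exceed 9.10 CPM in any spermatid-like cluster. The Leydig-like cluster held Psmc3ip at 61.6 CPM and in 22.8% of cells at a median of 4055 UMIs. Whether these are transcripts of those cells or free RNA was not tested, and shares of B0 cells have to be read beside it. Of Psmc3ip UMIs in B0, 64.4% came from the Dcn-led cluster. The Psmc3ip gene overlaps Mlx on the other strand.

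The 250 bases upstream of the RefSeq start (GRCm38.p6, the assembly of mm10) are shown for these partners because their profiles differed, at chr11:101095436-101095685 (minus strand) for Psmc3ip and chr3:84155787-84156036 (minus strand) for Mnd1. Both are written 5′ to 3′ on the strand of the gene. Capitals would mark a STRA8 motif (CNCCTCAG), an E2F motif (TTTCCCGC or TTTGGCGC), a MYB motif (CAACGG or TAACGG or CAACTG or TAACTG) or a CRE motif (TGACGTCA) on either strand, and none of these letters occur in either window.
Psmc3ip: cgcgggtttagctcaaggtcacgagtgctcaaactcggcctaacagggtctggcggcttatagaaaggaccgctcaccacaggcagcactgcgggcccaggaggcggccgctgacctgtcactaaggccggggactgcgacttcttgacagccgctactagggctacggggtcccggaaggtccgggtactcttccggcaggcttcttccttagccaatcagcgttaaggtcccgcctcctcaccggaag
Mnd1: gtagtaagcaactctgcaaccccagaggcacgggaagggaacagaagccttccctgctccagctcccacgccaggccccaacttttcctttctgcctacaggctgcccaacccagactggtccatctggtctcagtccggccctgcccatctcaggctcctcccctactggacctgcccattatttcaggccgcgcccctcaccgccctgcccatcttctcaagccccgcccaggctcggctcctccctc

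The single-strand binding genes divided in a similar way. Meiob, a paralogue of RPA1 that is specific to meiosis, had the sharpest profile of the 32 genes with 236 CPM (207 to 268) in the Sycp1-richest cluster against 40.4 CPM (34.95 to 46.4) in the next, the Tex101-led cluster. Among the cells of the Sycp1-richest cluster 70.7% (63.5% to 77.1%) had a Meiob UMI at a median of 4655 UMIs, against 0.706% of Leydig-like cells at 4055 UMIs. Spata22, the partner of MEIOB, followed the same order at lower levels, 19.6 CPM (11.98 to 30.3) and 15.4 CPM (12.1 to 19.3), which overlap. Rpa2 was also highest there at 114 CPM (94.0 to 136), with the Stra8/Cldn5 cluster at 102 CPM (89.3 to 115) next to it. These intervals overlap, and the order depended on the clustering. At the finer Leiden resolution of 2, Rpa2 was 190 CPM in a spermatogonia-like cluster with high Stra8 and 121 CPM in the Meiob-led cluster.

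Rpa1, the large subunit of replication protein A, had the opposite profile to its partner Rpa2. It was 18.6 CPM (11.2 to 29.1) in the Sycp1-richest cluster, an interval that overlaps the 26.7 CPM (23.9 to 29.6) of Leydig-like cells. From 57.2 CPM in the Tex101-led cluster it stood at 147 and 177 CPM in the 2 Pou5f2-led clusters and at 306 CPM (298 to 314) in the Cd320-led spermatocyte-like cluster, its highest level. In BA10, 51.8% of its UMIs came from a Cdk1-bearing spermatocyte-like cluster at 252 CPM. Rpa1 and Rpa2 transcripts were thus most abundant in different cells.

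Dmc1, the meiotic recombinase, was highest in the Sycp1-richest cluster at 29.4 CPM (19.8 to 42.0), then the Stra8/Cldn5 cluster at 14.7 CPM (10.3 to 20.5) and the Stra8/Crabp1 cluster at 12.1 CPM (7.39 to 18.7). It was 0.849 CPM in A0, 0.828 CPM in A10, 3.79 CPM in B0 and 1.30 CPM in BA10. Rad54l, a translocase that works with the recombinases, peaked in the Tex101-led cluster at 17.8 CPM (14.3 to 21.99). Brca1, which acts in end resection, and Palb2, which joins BRCA1 to BRCA2, reached 18.5 CPM in the Stra8/Cldn5 cluster and 17.7 CPM in the Sycp1-richest cluster.

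Tex15 and Brca2 are both needed for loading the recombinases. Tex15 was high at separate points with a gap between them, and Brca2 had no such gap in the clusters given here. Tex15 was 137 CPM (123 to 153) in the Stra8/Cldn5 cluster, 30.4 CPM in the Sycp1-richest cluster and 4.06 CPM in the Tex101-led cluster. It was 1.66 and 1.77 CPM in the Pou5f2-led clusters and 1.62 CPM in the Cd177-led cluster, then 110 CPM (105 to 115) in a Tssk5-led spermatid-like cluster, where 72.9% of cells had a UMI. In the Pou5f2-led and Cd177-led clusters Tex15 was thus no higher than in Leydig-like cells (2.88 CPM), whereas it was 24.3 CPM in the Gdf9-led and 37.2 CPM in the Speer4c-led spermatocyte-like cluster. Brca2 was 110 CPM (101 to 119) in the Tex101-led cluster, 58.2 CPM (52.8 to 64.1) in the highest Pou5f2-led cluster and again 83.7 CPM (76.9 to 91.0) in a spermatid-like cluster led by Col6a4. The Brca2 window at chr5:150522371-150522620 (plus strand) is shown because it held both an E2F and a CRE motif, here in capitals in that order.
Brca2: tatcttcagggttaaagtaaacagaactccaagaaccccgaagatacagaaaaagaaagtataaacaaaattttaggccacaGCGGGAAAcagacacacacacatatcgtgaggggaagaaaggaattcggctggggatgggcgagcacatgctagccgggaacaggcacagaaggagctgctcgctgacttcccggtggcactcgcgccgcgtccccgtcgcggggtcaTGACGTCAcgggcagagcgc

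**Figure D2:**
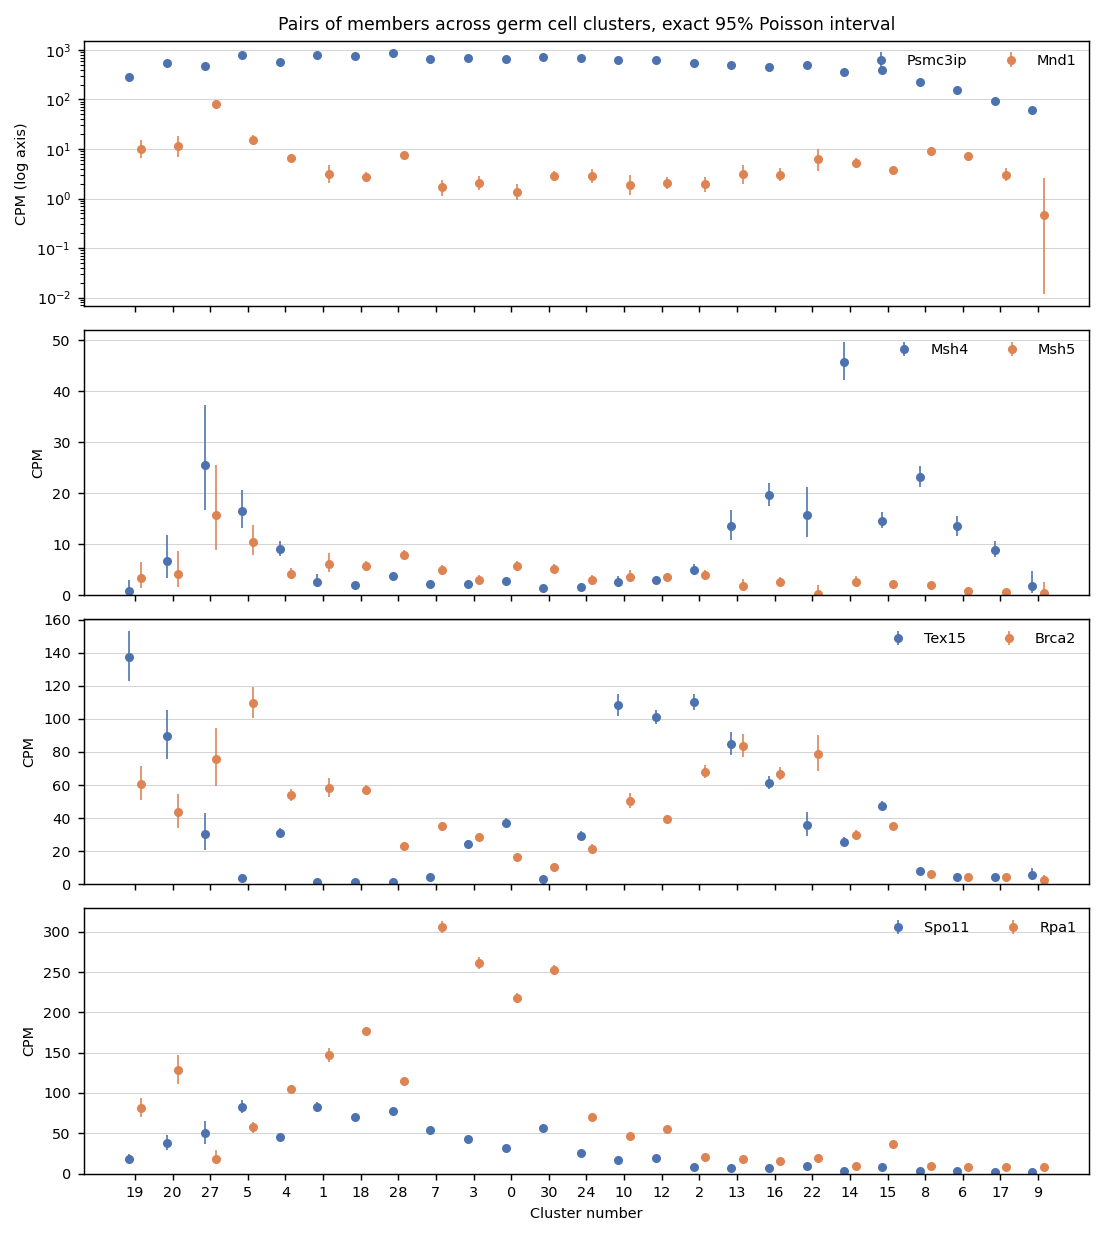
Levels in CPM with exact 95% Poisson intervals across the germ cell clusters for Psmc3ip and Mnd1 (log axis), Msh4 and Msh5, Tex15 and Brca2, and Spo11 and Rpa1. Mnd1 falls from 79.4 CPM while Psmc3ip is at 584 CPM or more in the spermatocyte-like clusters, and Msh4 peaks at 45.7 CPM in a spermatid-like cluster. Tex15 has a trough of 1.62 to 1.77 CPM between its maxima in the Stra8/Cldn5 and Tssk5-led clusters.

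Crossover formation. Msh4 and Msh5 encode both subunits of the clamp that stabilises joint molecules. Msh5 was highest in the Sycp1-richest cluster at 15.7 CPM (8.97 to 25.5), with 10.5 CPM (7.88 to 13.8) in the Tex101-led cluster and 7.999 CPM in the Cd177-led cluster. Msh4 was 25.5 CPM (16.7 to 37.4) and 16.6 CPM (13.2 to 20.6) in the first 2 of these and 2.63 CPM in a Pou5f2-led cluster, but was highest in a Dyrk4-led spermatid-like cluster at 45.7 CPM (42.2 to 49.6), where Msh5 was 2.68 CPM (1.86 to 3.72). The partners were thus detected together in the Sycp1-richest and Tex101-led clusters, and Msh4 without a like level of Msh5 in spermatid-like cells. In the libraries Msh4 was 10.1 CPM (9.59 to 10.6) in A0, 9.23 CPM (8.74 to 9.74) in A10, 1.90 CPM (1.40 to 2.51) in B0 and 3.11 CPM (2.76 to 3.49) in BA10, lower in both busulfan libraries, where spermatid-like cells were 0.129% and 4.05% of cells.

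The upstream windows of this pair are shown because their profiles differed, and that of Hfm1 because it held a STRA8 motif. They lie at chr3:153904892-153905141 (minus strand), chr17:35046623-35046872 (minus strand) and chr5:106925891-106926140 (minus strand). Capitals mark, in Msh5, a MYB, a STRA8 and an E2F motif in that order, and in Hfm1 a STRA8 motif. Msh4 held none of them. The Msh4 and Hfm1 windows lie wholly, and the Msh5 window partly, within the bounds of their genes in GENCODE release M21. The motifs were not counted upstream of those bounds, so the windows cannot be read as a difference between promoters.
Msh4: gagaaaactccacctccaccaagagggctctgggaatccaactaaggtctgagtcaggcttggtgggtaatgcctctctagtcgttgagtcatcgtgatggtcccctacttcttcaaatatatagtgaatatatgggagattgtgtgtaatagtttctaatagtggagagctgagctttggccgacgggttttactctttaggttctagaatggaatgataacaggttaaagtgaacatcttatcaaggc
Msh5: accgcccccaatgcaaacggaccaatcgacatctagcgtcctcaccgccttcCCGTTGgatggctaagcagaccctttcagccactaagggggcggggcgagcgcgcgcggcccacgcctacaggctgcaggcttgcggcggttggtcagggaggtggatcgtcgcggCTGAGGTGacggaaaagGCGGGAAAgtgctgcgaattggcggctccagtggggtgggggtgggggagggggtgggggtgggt
Hfm1: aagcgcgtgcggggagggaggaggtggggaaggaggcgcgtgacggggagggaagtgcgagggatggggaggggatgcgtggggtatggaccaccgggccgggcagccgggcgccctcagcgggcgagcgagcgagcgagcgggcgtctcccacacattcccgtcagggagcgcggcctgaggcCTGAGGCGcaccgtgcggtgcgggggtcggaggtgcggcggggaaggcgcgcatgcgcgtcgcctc
Of the 27 genes with a window, the STRA8 letters occurred in 2 (Hfm1 and Msh5), E2F in 3 (Brca2, Msh5 and Mdc1), MYB in 5 and CRE in 1. Over all 32851 windows of the same length the shares with these letters were 6.42%, 1.30%, 23.7% and 1.55%. These are matches of letters, and no binding was measured. Of the 27 windows, 24 read into a GENCODE transcript of their own gene.

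Hfm1, the helicase that works on joint molecules, was 63.7 CPM (49.2 to 81.2) in the Sycp1-richest cluster, 27.2 CPM (22.8 to 32.2) in the Tex101-led cluster and at most 4.84 CPM in the Pou5f2-led clusters. Ccnb1ip1 (HEI10), a ubiquitin ligase that limits crossover sites, followed the same order with 79.4 CPM (63.1 to 98.7) and 51.7 CPM (45.6 to 58.5). Mlh3, which takes part in cutting joint molecules, was highest in the Tex101-led cluster at 78.1 CPM (70.5 to 86.3), with 53.9 CPM (40.6 to 70.2) in the Sycp1-richest cluster. The Tex101-led cluster held only A0 and A10 cells, and the Sycp1-richest one only B0 and BA10 cells. Stage and library cannot be told apart between them. Rnf212, a SUMO ligase that selects crossover sites, and Cntd1, a cyclin-like protein that ends their selection, were spread more evenly. Rnf212 ranged from 18.4 to 39.0 CPM over the spermatocyte-like clusters, and Cntd1 was 136 CPM (115 to 161) in the Sycp1-richest cluster and 129 CPM (124 to 134) in the Cd320-led one. Tex11, an X-linked crossover gene, was 26.5 CPM (20.4 to 33.9) in the Stra8/Cldn5 cluster and 22.98 CPM in the Stra8/Crabp1 cluster, and had 0 UMIs in the 184 cells of the Sycp1-richest cluster, which at the limit of 3 counts used here for a count of 0 allows up to 2.94 CPM (exact upper bound 3.62 CPM). Exo1, a nuclease of resection and crossing over, was 22.7 CPM (17.1 to 29.6) in the Stra8/Cldn5 cluster and 18.3 CPM (14.7 to 22.4) in the Tex101-led one.

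Damage signalling. Atm and Atr, the kinases that sense breaks and resected DNA, had separate profiles. Atm was 55.1 CPM (46.1 to 65.4) in the Stra8/Cldn5 cluster, 24.9 CPM in the Sertoli-like cluster, 14.7 CPM in the Sycp1-richest cluster and 14.6 CPM (12.6 to 16.9) in Leydig-like cells. The Sycp1-richest cluster and the Leydig-like cells thus did not differ in Atm beyond their intervals, and the Stra8/Cldn5 cluster is the mixed one described above. At Leiden resolution 2, Atm was 96.3 CPM (111 UMIs) in the spermatogonia-like cluster with high Stra8. Atr was 162 CPM (138 to 188) in the Sycp1-richest cluster and 115 CPM (106 to 125) in the Tex101-led cluster. Topbp1, which activates ATR, and Mdc1, which spreads the ATR signal over the X and Y chromosomes, went with Atr, at 160 CPM (136 to 186) and 98.2 CPM (89.6 to 107) for Topbp1 and 99.0 CPM (80.7 to 120) and 67.1 CPM (60.1 to 74.8) for Mdc1. Trip13, the ATPase that clears HORMA proteins from paired axes, was 42.5 CPM (34.6 to 51.6) in the Stra8/Cldn5 and 31.4 CPM (21.5 to 44.3) in the Sycp1-richest cluster. Brip1, a helicase of cross-link repair, was 15.1 CPM (10.6 to 20.96) and 7.84 CPM (3.39 to 15.5) in the same clusters.

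Most of the 32 genes had a lower level in spermatid-like than in Pou5f2-bearing spermatocyte-like clusters. When the highest spermatid-like cluster was set against the highest cluster with Pou5f2, 19 genes were lower with intervals that did not overlap, 10 were higher and 3 overlapped. Over all 18419 genes 25.4% were lower and 34.1% higher by the same rule, so the share of higher ones was near that over all genes. Of the 16 genes with a mean of at least 5 CPM, 12 were lower and 3 higher, against 41.4% and 40.5% of the 9967 genes past that level. Beside Tex15, Msh4 and Brca2 the higher ones were Dmc1, Prdm9, Rec114, Tex11, Brca1, Trip13 and Brip1, at levels between 2.61 CPM (Dmc1) and 10.0 CPM (Trip13). The highest was taken from 12 spermatid-like clusters but from 3 clusters with Pou5f2, which favours the spermatid-like side, so this is a description.

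**Figure D3:**
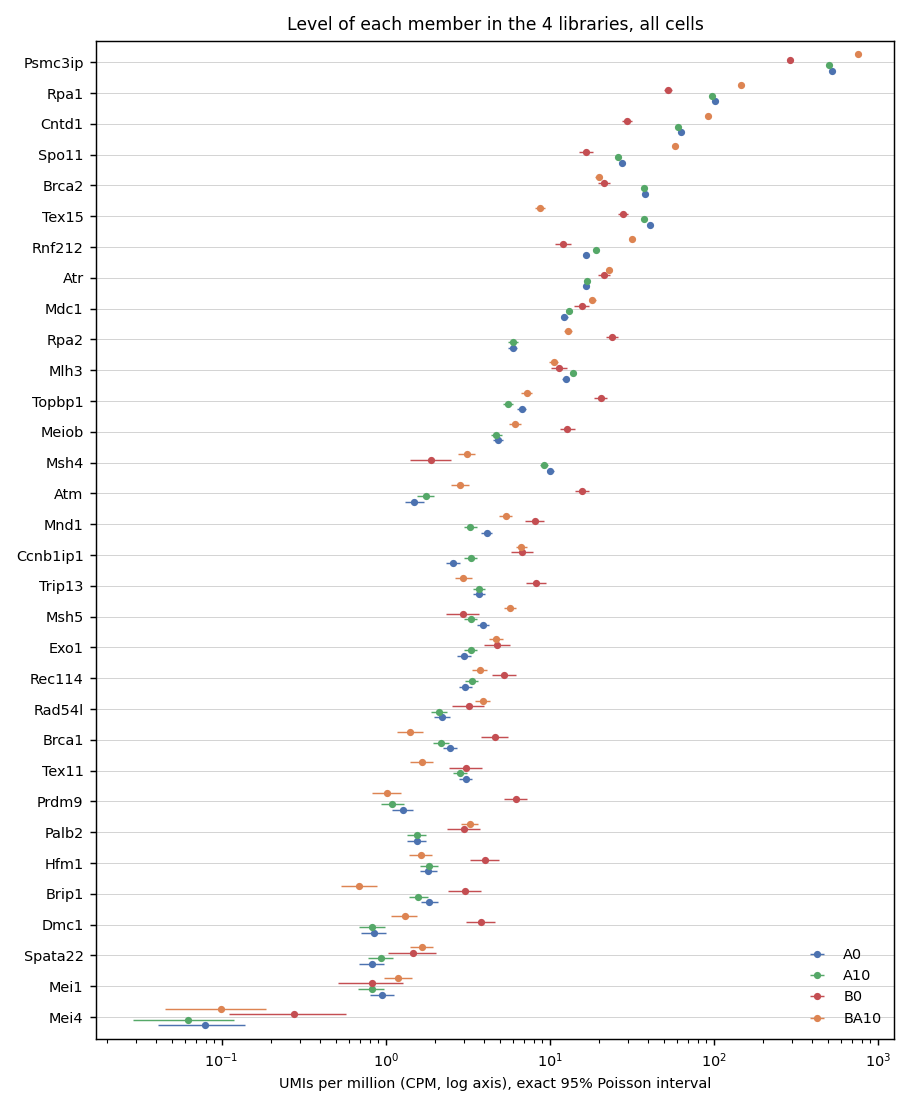
Level of each of the 32 genes in CPM (log axis) with exact 95% Poisson intervals in the A0, A10, B0 and BA10 libraries, ordered by mean level. A0 and A10 lie close together for every gene, whereas B0 and BA10 lie apart from them for several genes, with Psmc3ip between 290 and 753 CPM at the top and Mei4 below 0.3 CPM at the bottom.

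AOS in mice without busulfan. The comparison of A10 with A0 concerns AOS alone, and the levels in these libraries were close. Log2 ratios were taken after adding 1 CPM. For folds a gene had to reach a mean of 5 CPM over the 4 libraries, which 16 of the 32 genes and 9967 of all genes did. None of the 16 differed 2-fold in either direction in all cells or in deep cells. Over all genes past that floor 0.0401% were at least 2-fold higher and 0.0702% lower in all cells, and 0.0401% and 0.0502% in deep cells. The log2 ratios of the 32 genes ran from -0.26 (-0.45 to -0.07) for Mnd1 to 0.27 (0.06 to 0.47) for Ccnb1ip1, and the median of the 16 was -0.04 beside -0.02 over all genes. Summed over the 32 genes the level was 922 CPM (917 to 927) in A0 and 888 CPM (883 to 893) in A10.

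Busulfan against vehicle. In all cells, 4 of the 16 genes were at least 2-fold higher in B0 than in A0 and 2 were lower, against 36.9% higher and 23.6% lower over all genes. The higher ones were Atm (1.49 to 15.7 CPM, log2 2.74, interval 2.49 to 2.99), Rpa2 (5.95 to 24.05 CPM, log2 1.85), Topbp1 (6.76 to 20.5 CPM, log2 1.47) and Meiob (4.83 to 12.8 CPM, log2 1.25). Atm reached the floor only through B0, with 1.49, 1.75 and 2.85 CPM in A0, A10 and BA10. Its calls against B0 are therefore not independent of the floor. The lower ones were Msh4 (log2 -1.94, interval -2.28 to -1.59) and Cntd1 (63.2 to 29.7 CPM, log2 -1.06). Msh4 reached the floor only through A0 and A10, with 1.90 and 3.11 CPM in B0 and BA10. Its calls against A0 are likewise not independent of the floor. As a share, 12.5% were lower, and neither count exceeds the share over all genes. Of the Meiob UMIs of B0, 73.8% came from the Sycp1-richest cluster, and of the Atm UMIs 47.1% came from Leydig-like cells. Among deep cells 1 gene was higher, Atm (1.52 to 4.52 CPM, log2 1.13, interval 0.57 to 1.67), and 1 lower, Msh4 (log2 -1.38, interval -1.92 to -0.84), against 22.1% and 9.69% over all genes. The floor was set on all cells, and here too Atm is counted only through its level in B0. Msh4 is counted only through its levels in A0 and A10.

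The summed level went in opposite directions with the choice of cells. It was 643 CPM (634 to 653) in B0 against 922 CPM in A0 over all cells, and 1205 CPM (1179 to 1232) against 933 CPM (928 to 938) among deep cells. Without Psmc3ip the sums were 354 against 397 CPM over all cells and 486 against 400 CPM among deep cells. Single genes also reversed with intervals clear of 0 on both sides, namely Spo11 from a log2 ratio of -0.70 to 0.73 (0.53 to 0.93), Rnf212 from -0.43 to 0.87 (0.62 to 1.11), Psmc3ip from -0.86 to 0.43 (0.38 to 0.48) and Cntd1 from -1.06 to 0.22 (0.06 to 0.37). The B0 library is mostly shallow Leydig-like cells, and its 448 deep cells are not a sample of the rest. Of the 708 cells of the Dcn-led cluster 516 were deep, and only 5, 10 and 153 of the 708 came from A0, A10 and BA10. Most of the deep B0 cells thus lay in that unnamed cluster. In the Leydig-like cluster 44 of 2974 cells were deep. The part of the Dcn-led cluster in the deep-cell levels of B0 was not tested.

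AOS after busulfan. Over all cells 5 of the 16 genes were at least 2-fold higher in BA10 than in B0, Spo11 (log2 1.75, interval 1.58 to 1.92), Cntd1 (1.60), Rpa1 (52.6 to 148 CPM, 1.47), Psmc3ip (1.38) and Rnf212 (12.1 to 31.8 CPM, 1.33). Lower were 3 genes, Atm (15.7 to 2.85 CPM, -2.12), Tex15 (28 to 8.71 CPM, -1.58) and Topbp1 (20.5 to 7.23 CPM, -1.38). Of these Atm passed the floor only through B0. Over all genes 19.3% were higher and 32.5% lower. Spermatocyte-like cells were 0.923% of B0 and 85.4% of BA10, and their part in these ratios was not tested. Another 24.3% of B0 cells lay in unnamed clusters, among them the Dcn-led and Sycp1-richest ones, whose best marker score was that of spermatocytes.

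Among deep cells, which in B0 were mostly those of the Dcn-led cluster, the higher calls were absent. No gene of the 16 was 2-fold higher in BA10 than in B0, where 1.14% of all genes were, and 1 was lower, Tex15 (39.4 to 8.71 CPM, log2 -2.06, interval -2.32 to -1.79), where 15.9% of all genes were. Psmc3ip was 719 CPM in B0 and 753 CPM in BA10 (log2 0.07), Rnf212 31.6 and 31.8 CPM, and Spo11 47.4 and 58.1 CPM (log2 0.29, interval 0.10 to 0.48). Below 2-fold, Rpa1 remained higher with 99.4 and 148 CPM (log2 0.56, interval 0.43 to 0.70), as did Cntd1 with 73.9 and 91.9 CPM (log2 0.31, interval 0.16 to 0.47). Mnd1 was also higher (log2 0.60, interval 0.01 to 1.19). Brca2 (log2 -0.80), Topbp1 (-0.73), Mlh3 (-0.60), Mdc1 (-0.39) and Atr (-0.37) were lower with intervals clear of 0. The summed level was 1205 CPM in B0 and 1242 CPM in BA10, all of whose cells are deep.

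**Figure D4:**
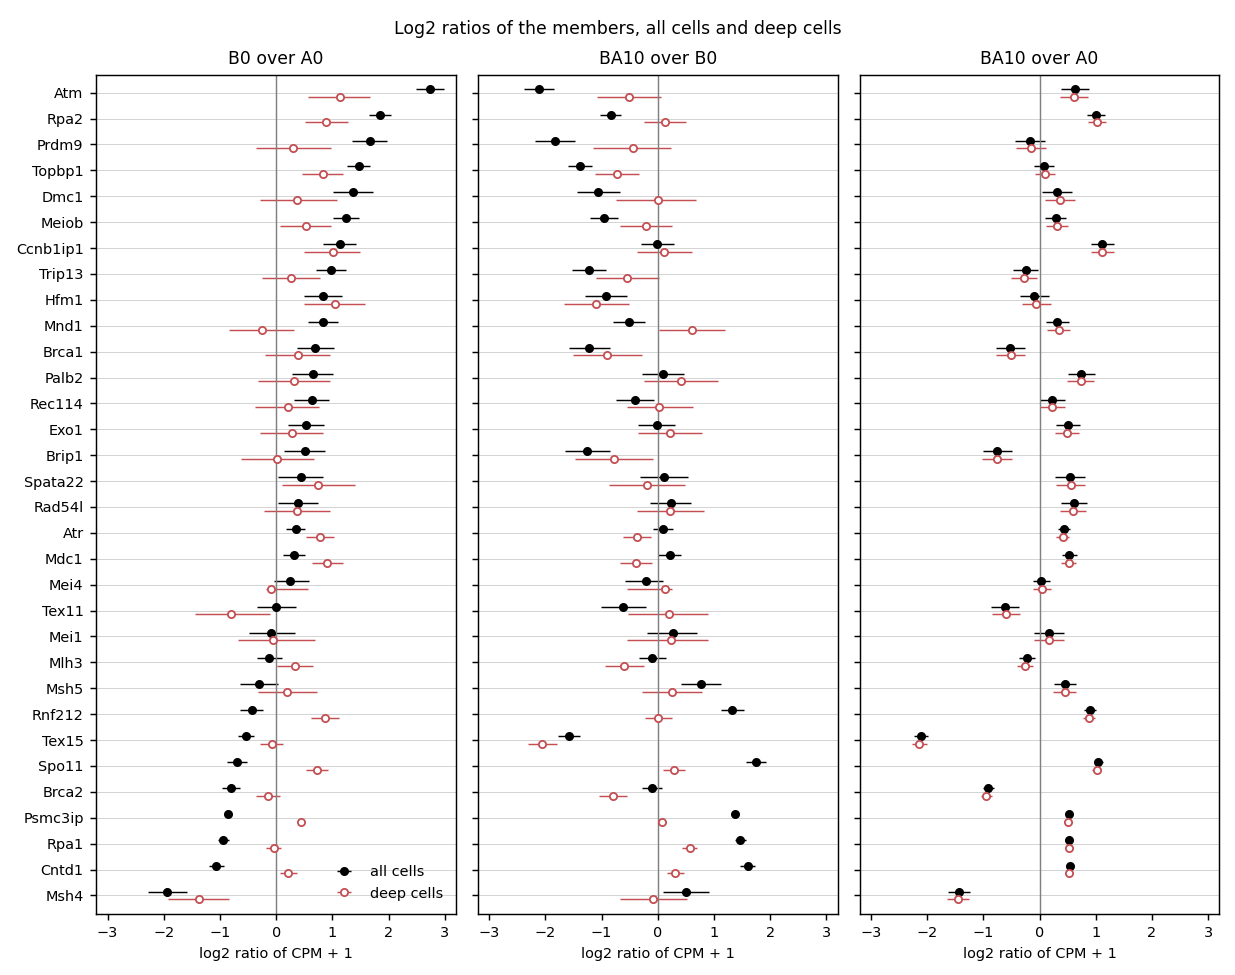
Log2 ratios with 95% intervals for genes of the list in B0 over A0, BA10 over B0 and BA10 over A0. Filled points are all cells and open points are deep cells. In the middle panel the filled points of Spo11, Cntd1, Rpa1, Psmc3ip and Rnf212 lie beyond 2-fold and their open points lie within it, whereas Tex15 lies below in both, and in the right panel filled and open points nearly coincide.

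Shares of cells with a UMI depend on depth and were also taken at equal depth. In A0 26.8% of cells had a Spo11 UMI and in A10 23.1%, against 5.80% in B0 and 59.9% in BA10. After each cell was thinned to 5000 UMIs, which left out 3235 shallower B0 cells and none of the other libraries, the shares were 10.9%, 8.89%, 8.15% and 23.2%. The Leydig-like cluster, which should lack the gene, had it in 0.168% of cells at a median of 4055 UMIs. Psmc3ip was detected in 94.5%, 92.5%, 35.3% and 99.3% of cells and, after thinning, in 83.1%, 81.8%, 61.0% and 95.5%. Thinning cannot raise detection in a cell, so the higher thinned shares of B0 come from leaving out its shallower cells.

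BA10 against vehicle. The ratios of BA10 over A0 hardly moved between all cells and deep cells. This was largely set by the limit, since every BA10 cell is deep and 7901 of 8941 A0 cells are. At least 2-fold higher were 2 of the 16 genes, Spo11 (27.6 to 58.1 CPM, log2 1.05, interval 0.97 to 1.13) and Rpa2 (5.95 to 12.99 CPM, 1.01), and 2 were lower, Tex15 (41.0 to 8.71 CPM, -2.11, interval -2.24 to -1.99) and Msh4 (10.1 to 3.11 CPM, -1.43). Over all genes 18.3% were higher and 16.4% lower in all cells, and 17.8% and 16.5% in deep cells, where the same 4 genes passed. Msh4 reached the floor only through its levels in A0 and A10. Spermatid-like clusters held Tex15 at up to 110 CPM and Msh4 at up to 45.7 CPM, and spermatid-like cells were 60.5% of A0 and 4.05% of BA10. The part of spermatid-like cells in these ratios was not tested. This comparison shares the A0 library with the B0 comparison and the BA10 library with the one before it.

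To take the makeup of the libraries out in part, spermatocyte-like cells were compared alone, with 3121 cells in A0, 3265 in A10 and 3225 in BA10. B0 had 43 such cells and was left out. That count depends on the clustering and the naming, since it was 228 with 1000 variable genes, and since the Dcn-led cluster, with 540 B0 cells, scored highest for spermatocytes before it was left unnamed. The A0 cells came from clusters led by Tex101, Pou5f2, Cd320, Gdf9 and Speer4c and the BA10 cells mostly from 3 others, led by Cd177, Ly9 with Cdk1, and Ssx9, so the cells compared lay mostly in different clusters. The summed level was 1346 CPM in A0, 1283 CPM in A10 (log2 -0.07, interval -0.09 to -0.05) and 1280 CPM in BA10 (log2 -0.07, interval -0.09 to -0.05). Psmc3ip was higher in BA10 than in A0 and the sum of the other 31 genes lower. Psmc3ip was 703 CPM in A0 and 780 CPM in BA10 (log2 0.15, interval 0.13 to 0.18), and the sum without it was 643 CPM in A0, 610 CPM in A10 and 499.6 CPM in BA10, a log2 ratio of -0.36 (-0.39 to -0.34) for BA10 over A0. The median over the 16 genes was -0.44 in BA10 over A0 beside 0.01 over all genes. Of the 16 genes 0 were 2-fold higher and 3 lower in BA10 than in A0, where 4.13% and 7.45% of all genes were, and 0 and 0 in A10, where 0.0301% and 0.0602% were. The 3 lower ones were Mlh3 (29.3 to 10.9 CPM, log2 -1.34, interval -1.50 to -1.19), Tex15 (18.7 to 7.12 CPM, -1.28) and Brca2 (43.3 to 18.4 CPM, -1.19). Topbp1 (15.4 to 7.36 CPM, -0.97), Hfm1 (3.86 to 1.63 CPM, -0.88) and Atr (36.1 to 22.8 CPM, -0.64) were also lower, and Rnf212 (21.8 to 32.8 CPM, 0.57), Mnd1 (3.26 to 5.23 CPM, 0.55), Rec114 (2.21 to 3.45 CPM, 0.47) and Spo11 (54.8 to 61.3 CPM, 0.16) were higher, with intervals clear of 0. Msh4 (-0.58), Meiob (-0.48), Brca1 (-0.46), Rpa1 (-0.46), Brip1 (-0.44), Mdc1 (-0.43) and Cntd1 (-0.21) were lower as well with intervals clear of 0. More genes were thus lower than higher. The Tex101-led cluster, in which Mlh3, Brca2, Topbp1, Hfm1 and Atr were high, held 0 BA10 cells. A second cluster led by Tex101, with Dazl and with the spermatid gene Prm1 at 9511 CPM, belonged to the same class and held 8. The part of these clusters in the ratios was not tested.

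The Pou5f2-led cells of A0 and A10 and the Cd177-led cells of BA10, the clusters with the most Pou5f2, had median depths of 30139, 28916 and 32130 UMIs and can be set side by side. Brca2 was 59.5 CPM (55.8 to 63.3) in A0, 55.6 CPM (52.2 to 59.2) in A10 and 22.6 CPM (21.1 to 24.2) in BA10. Mlh3 was 43.8 CPM (40.7 to 47.1), 43.1 CPM (40.1 to 46.2) and 15.8 CPM (14.6 to 17.1) in the same order. Both were similar in A0 and A10 and lower in BA10. Rpa1 followed with 182, 160 and 115 CPM. In the other direction, Ccnb1ip1 was 6.80 CPM (5.61 to 8.18), 8.49 CPM (7.19 to 9.96) and 13.6 CPM (12.4 to 14.8), and Mnd1 2.77, 2.92 and 7.81 CPM. Spo11 was 75.1 CPM (71.0 to 79.4), 70.1 CPM (66.3 to 74.1) and 77.8 CPM (75.0 to 80.6), and Psmc3ip 790, 748 and 866 CPM. Tex15 was low in all 3, at 1.75, 1.74 and 1.63 CPM. The genes therefore did not differ in 1 direction between these cells, and whether the clusters hold the same stage was not tested.

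Other recombination and repair genes were counted from a second list of 66, of which 48 passed the floor. Over all cells 10 were at least 2-fold higher and 3 lower in B0 than in A0, 5 and 6 in BA10 than in B0, 5 and 4 in BA10 than in A0, and 0 and 0 in A10 than in A0. Over all genes the shares higher and lower were 36.9% and 23.6%, 19.3% and 32.5%, 18.3% and 16.4%, and 0.0401% and 0.0702% in the same order, so that in the first 3 comparisons a smaller share of the list than of all genes passed in each direction. Among deep cells these counts were 6 and 1, 0 and 1, 6 and 4, and 0 and 0, against 22.1% and 9.69%, 1.14% and 15.9%, 17.8% and 16.5%, and 0.0401% and 0.0502% of all genes. In deep cells the lowest log2 ratios of B0 over A0 were those of Rad52 (-3.11, 40.3 to 3.79 CPM), a strand-annealing protein, Xrcc2 (-0.82), a gene of homologous recombination, and Trp53bp1 (-0.65), which guards broken ends. The highest were Rpa3 (1.82), the small RPA subunit, Hells (1.80), a chromatin remodeller, and Zcwpw1 (1.25), a reader of the PRDM9 mark. In BA10 over B0 they ran from Fam175a (-1.77), a partner of BRCA1, Trp53bp1 (-0.99) and the checkpoint kinase Chek1 (-0.91) up to Bard1 (0.72), the BRCA1 partner, Xrcc2 (0.81) and Rad1 (0.87), a checkpoint clamp subunit. The mean of Rpa3 reached the floor only through B0, with 1.86, 2.07, 26.9 and 5.18 CPM in all cells of A0, A10, B0 and BA10. That of Bard1 reached it only through BA10, with 4.14, 4.56, 5.25 and 9.07 CPM in the same order. The ratios named for these genes are therefore not independent of the floor.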

How the data were processed

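Testis cells of 4 libraries, 1 for each group, were analysed in 1 table of 18419 genes and 27060 cells. Per the submitters' notes the authors aligned reads to mm10 with Cell Ranger 2.2.0 and normalised with Seurat. The deposited values were the natural log of 1 plus 10000 times each gene's share of the UMIs of a cell. Whole UMIs were recovered for 100% of the values (tolerance 0.001 UMI), and the cells were filtered by the authors. Groups were taken from the sample labels. The table holds no mitochondrial gene, so that this sign of cell quality was not used here.

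Cells were clustered with scanpy 1.11.5 (2000 variable genes, 30 principal components, 15 neighbours, Leiden resolution 1, leidenalg 0.10.2), leaving the 32 genes out of the variable genes. Clusters were named from marker lists when at least 3 markers were detected and no other class led the 10 leading genes. Doublets were called with Scrublet and kept. UMIs were summed per library or cluster and divided by the total to give CPM. A ratio is log2 after adding 1 CPM, and 2-fold is a log2 ratio of 1. Cells of a class were compared where both libraries held at least 50. Intervals were made with scipy 1.17.1, and the code was tested on simulated data. Starts came from RefSeq, where 27 of the 32 genes matched, and gene overlaps from GENCODE release M21. Named members are the whole list. Of the other genes the 3 highest and 3 lowest in deep cells were named. The list, the second list and the markers were chosen with earlier results of these data known. Alternatives changed the pseudocount, cells, weighting, scaling, floor, doublets and clustering.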

Additional observations from a re-analysis of the deposited data

Results flagged for a closer look

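The log2 ratios of A10 over A0 and of BA10 over B0 had opposite signs for the summed level of the 32 genes and, among genes whose intervals lay clear of 0 in both comparisons, for Psmc3ip and Rpa1. The log2 ratio of BA10 over B0 minus that of A10 over A0 was 1.00 for the summed level. It was 1.44 for Psmc3ip, from -0.07 without and 1.38 with busulfan, and 1.53 for Rpa1, from -0.06 and 1.47. With 1 library a group the difference was not tested. In deep cells the ratios without and with busulfan were -0.04 and 0.04 for the summed level, -0.05 and 0.07 for Psmc3ip and -0.06 and 0.56 for Rpa1. Spermatocyte-like cells were 0.923% of B0 and 85.4% of BA10, and their part in the differences was not tested.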

How the results depend on the processing

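The alternatives gave 244 values beside 37 results. Of these 153 stayed within the counting interval or within 1.5 times of a count, 86 moved and 5 reversed. Deep cells reversed the summed level of B0 over A0 (log2 0.37), the median of B0 over A0 (0.48) and Cntd1 in B0 over A0 (0.22). They moved the summed level of BA10 over B0 to 0.044 and of BA10 over A0 to 0.41, the genes higher in B0 over A0 to 1 and lower to 1, and those of BA10 over B0 to 0 higher and 1 lower. With a floor of 1 CPM and without a floor the median of B0 over A0 reversed to 0.47 and 0.41, 7 genes were higher in B0 over A0 (43.5% and 36.3% of all genes) and 8 lower in BA10 over B0 (39.9% and 33.2%) with either, and the median of BA10 over A0 was 0.32 without a floor. Adding 10 CPM gave 2 higher and 0 lower in B0 over A0 (29% and 18.1% of all genes), 1 lower in BA10 over B0 (25.2%), 0 higher and 1 lower in BA10 over A0 (4.41% and 11.9%), and a median of 0.23 there. With each cell weighted equally the summed level was -0.095 in A10 over A0 and -0.89 in B0 over A0, while BA10 gave 1.35 over B0 and 0.46 over A0, 6 genes were lower in B0 over A0 (30.7% of all genes), and the median of BA10 over B0 was 0.21. With the median of all genes set to 0 these sums were -0.035, -0.75, 1.07 and 0.0075, the medians of B0 over A0 and BA10 over A0 were -0.51 and 0.055, 5 genes were lower in B0 over A0 (28.8% of all genes) and 0 higher in BA10 over A0 (5.88%). Within spermatocyte-like cells the summed level of BA10 over A0 was -0.0017 and -0.017 at resolutions 0.5 and 2, -0.027 with 1000 variable genes and -0.10 without Scrublet calls. At resolution 0.5, 20 of the 32 genes and 32.4% of all genes were highest in the Sycp1-richest cluster, against 13 and 8.29% as reported. The cause of these moves was not tested.

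At resolution 2 a spermatogonia-like cluster of 252 cells (240 of B0 and 12 of BA10) split off, with Tex15 at 239 CPM, Rec114 at 69.4 CPM and Prdm9 at 36.4 CPM, and the Meiob-led cluster kept 180 cells. When the 32 genes were allowed among the variable genes, 0 of them were variable, so the clustering was the same. Leaving out cells with shared barcodes and 2 naming rules (a somatic name needs its own marker among the leading genes, and a cluster led by Dcn and Mgp gets no germ cell name) were chosen after seeing the data. The order of the clusters in the figures was set by hand after the marker levels were seen. Without the shared barcodes no result moved. Scrublet called 0.0859% of B0 cells against 8.06% of A0 cells, and whether the caller worked in B0 was not tested. No paired analysis was possible because each group had 1 library and no test was made, and leaving out a replicate was not possible for the same reason. Low counts limit Mei4, Mei1, Spata22 and Dmc1, and pooled mice leave the spread between animals unknown.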
